A study of Mus musculus with 24 samples.

Results

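The genes described here encode the subunits of Polycomb Repressive Complex 2 (PRC2). They are the methyltransferase genes Ezh2 and Ezh1, the core genes Eed and Suz12, and the accessory genes Jarid2, Aebp2, Mtf2, Phf1 and Phf19. They were taken from the gene table of a calibrated RNA sequencing (cRNA-seq) experiment by gene symbol, keeping for each symbol the row with the largest summed normalised read count. This gave 9 of 19409 symbols, each with a single row among the 20633 transcripts of the table. All 9 were among the 16940 transcripts tested, and none was lost to the filter on low counts. The libraries come from mouse embryonic stem cells (ESCs) of strain E14, in 4 conditions of 3 biological replicates. PRC1CKO cells have the genotype Ring1a-/-; Ring1bfl/fl; Rosa26::ERT2-Cre and are a single clone, B9. In these cells 4-hydroxytamoxifen (OHT) deletes Ring1b where Ring1a already carries a deletion of its first exons, so that PRC1 is lost. PRC1CPM cells, also a single clone (41), carry Ring1a with the substitutions I50A and D53K throughout, and their Ring1b alleles are switched by OHT from wild type to a version with I53A and D56K. PRC1 then stays present without its catalytic activity. Each line was left untreated or given 800 nM OHT for 72 h, and Cre is made from the Rosa26 locus in all 4 conditions. No line with wild-type Ring1a was among them.

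PRC2 methylates histone H3 at lysine 27. EZH2 or EZH1 carries the catalytic SET domain and is active only in complex with EED, which binds the trimethylated mark (H3K27me3), and SUZ12, which holds the complex together. The core joins either JARID2 and AEBP2 (PRC2.2), where JARID2 binds H2A ubiquitylated by PRC1, or a Polycomb-like protein, MTF2, PHF1 or PHF19 (PRC2.1), which binds DNA rich in CpG and methylated histone H3. In ESCs the mark lies over the CpG-rich promoters of silent developmental genes. The question put to these libraries was whether the RNA of the PRC2 genes differs when PRC1 is removed and when its catalysis alone is removed.

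The libraries held between 14668159 and 27016156 reads on the transcripts of the table, and the PRC2 genes between 101 (Phf19) and 39276 (Jarid2) reads in a library. Normalised read counts were scaled to a spike-in of Drosophila cells. On that scale replicate 1 of untreated PRC1CKO summed to 24958331, against 17618069 and 17755844 in replicates 2 and 3, and replicate 1 of OHT-treated PRC1CPM to 26077686, against 17909909 and 21836456. Replicate 1 of untreated PRC1CPM stood at 24373383, against 19075822 and 19883420. In each of these 3 libraries 7 or more of the 9 PRC2 genes had the highest value of their condition, as 7 did in OHT-treated PRC1CKO replicate 3, whose sum (20939764) was below that of replicate 1 (22092158). Where a call changed without 1 of these 3 libraries, the value without it is given with the gene, and some members are also compared as ratios within a library.

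Rnf2, the gene for RING1B whose exon OHT alters, stood at 1526 ± 201 normalised read counts in untreated and 1546 ± 50.8 in OHT-treated PRC1CKO cells, and at 1696 ± 140 and 1511 ± 214 in PRC1CPM cells (mean ± SD, n = 3). Ring1, the gene for RING1A, stood at 227 ± 76.3 and 254 ± 26.4 in PRC1CKO cells, where its first exons are deleted, and at 162 ± 32.2 and 140 ± 25.8 in PRC1CPM cells. The counts run over the whole gene, so they check neither the altered exon of Rnf2 nor the deleted part of Ring1. Of the ESC markers listed for this check, 9 of 10 were in the table, among them Pou5f1, Nanog and Sox2, and none was at 0. A transcript was called as changed at an adjusted p under 0.05 in limma's test with Benjamini-Hochberg adjustment and a change over 1.5-fold. None of the 9 rose with OHT, while 3 fell in PRC1CKO cells (Sox2, Utf1 and Fgf4) and 1 in PRC1CPM cells (Fgf4), where 3.09% and 1.4% of all transcripts fell and 16.5% and 13.1% rose. Their summed normalised read count had a median of 60648 (59005 to 75642) in untreated and 50703 (47266 to 55160) in OHT-treated PRC1CKO cells, and of 52519 (49471 to 60687) and 56664 (38369 to 58033) in PRC1CPM cells, where the groups overlapped and 1 OHT-treated library lay below all untreated ones. Endoderm markers, of which Gata6 had the highest mean in OHT-treated PRC1CKO cells and Gata4 in the other conditions, went from a summed median of 309 to 1690 in PRC1CKO and from 214 to 862 in PRC1CPM cells. All 4 endoderm markers rose in each line, beside the 16.5% and 13.1% of all transcripts. In bulk libraries, a change in the share of cells and a change in RNA per cell cannot be told apart, and the part these markers have in the results below was not tested.

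The 250 bases before the annotated start of Jarid2, Ezh1 and Suz12 are shown because Jarid2 is the member called with OHT and the other two lie on a chromosome that differed between the lines, and because CpG density is a feature through which Polycomb complexes are known to find promoters. CpG dinucleotides (the letters CG, which read the same on both strands) are in capitals, and the sequences are those of RefSeq for GRCm38, 5′ to 3′ on the strand of the gene.
Jarid2: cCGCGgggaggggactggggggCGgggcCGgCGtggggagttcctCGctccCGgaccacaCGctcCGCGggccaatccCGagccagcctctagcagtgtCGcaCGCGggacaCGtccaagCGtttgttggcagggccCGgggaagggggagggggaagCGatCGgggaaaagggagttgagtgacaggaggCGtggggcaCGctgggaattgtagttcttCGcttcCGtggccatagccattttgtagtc
Ezh1: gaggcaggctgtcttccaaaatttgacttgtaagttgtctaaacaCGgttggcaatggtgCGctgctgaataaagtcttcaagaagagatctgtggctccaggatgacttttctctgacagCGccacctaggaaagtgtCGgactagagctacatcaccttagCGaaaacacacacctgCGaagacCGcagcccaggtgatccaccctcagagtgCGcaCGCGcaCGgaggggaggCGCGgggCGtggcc
Suz12: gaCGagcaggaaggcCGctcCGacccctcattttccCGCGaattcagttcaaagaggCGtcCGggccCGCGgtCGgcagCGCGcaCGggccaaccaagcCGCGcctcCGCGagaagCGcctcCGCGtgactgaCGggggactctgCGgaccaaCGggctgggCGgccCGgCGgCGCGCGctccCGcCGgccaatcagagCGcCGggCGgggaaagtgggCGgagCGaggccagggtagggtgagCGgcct
The Jarid2 window lies at chr13:44730524-44730773 on the plus strand and holds 23 CpGs, a number reached by 13.3% of the 32851 promoters of the same length. The Ezh1 window lies at chr11:101226464-101226713 on the minus strand and holds 14 CpGs, and 29.4% of promoters hold at least as many. The Suz12 window, at chr11:79992856-79993105 on the plus strand, holds 37, the most of the 9 genes. Promoters of all 9 genes were found. Ezh2, Mtf2 and Phf1 held 23 CpGs each, Phf19 31, Eed 12 and Aebp2, at the start of the transcript counted here, 1.

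When the lines were compared with and without OHT, the median change of the PRC2 genes was close to that of all transcripts, and Jarid2 was the only member called. Relative to the median of all transcripts Jarid2 lay at 0.61 in PRC1CKO and 0.56 in PRC1CPM cells on the log2 scale, and Ezh1, without a call, about as far below it (-0.54 and -0.45). In PRC1CKO cells, 1 of 9 members rose and none fell, where 19.5% of all transcripts passed, 16.5% as higher and 3.09% as lower. In PRC1CPM cells, 1 of 9 rose and none fell, where 14.5% of all transcripts passed, 13.1% as higher and 1.4% as lower. Calls that were higher made up 84.2% in PRC1CKO and 90.4% in PRC1CPM cells, and 71.5% and 80.1% on the scale set by the bulk of each library's own transcripts (TMM). The member was Jarid2 in each line. The median log2 fold change of the 9 genes was 0.12 in PRC1CKO and 0.09 in PRC1CPM cells, beside 0.12 and 0.10 over all transcripts tested. Leaving out a library moved the median of all transcripts to between 0.018 and 0.294 in PRC1CKO cells. In PRC1CPM cells it then lay between -0.041 and 0.252. At an unadjusted p under 0.05 there was also 1 of 9 in each line, where 28.1% of all transcripts in PRC1CKO and 22.9% in PRC1CPM cells had such a p. Neither count of members was above the background share.

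**Figure D1:**
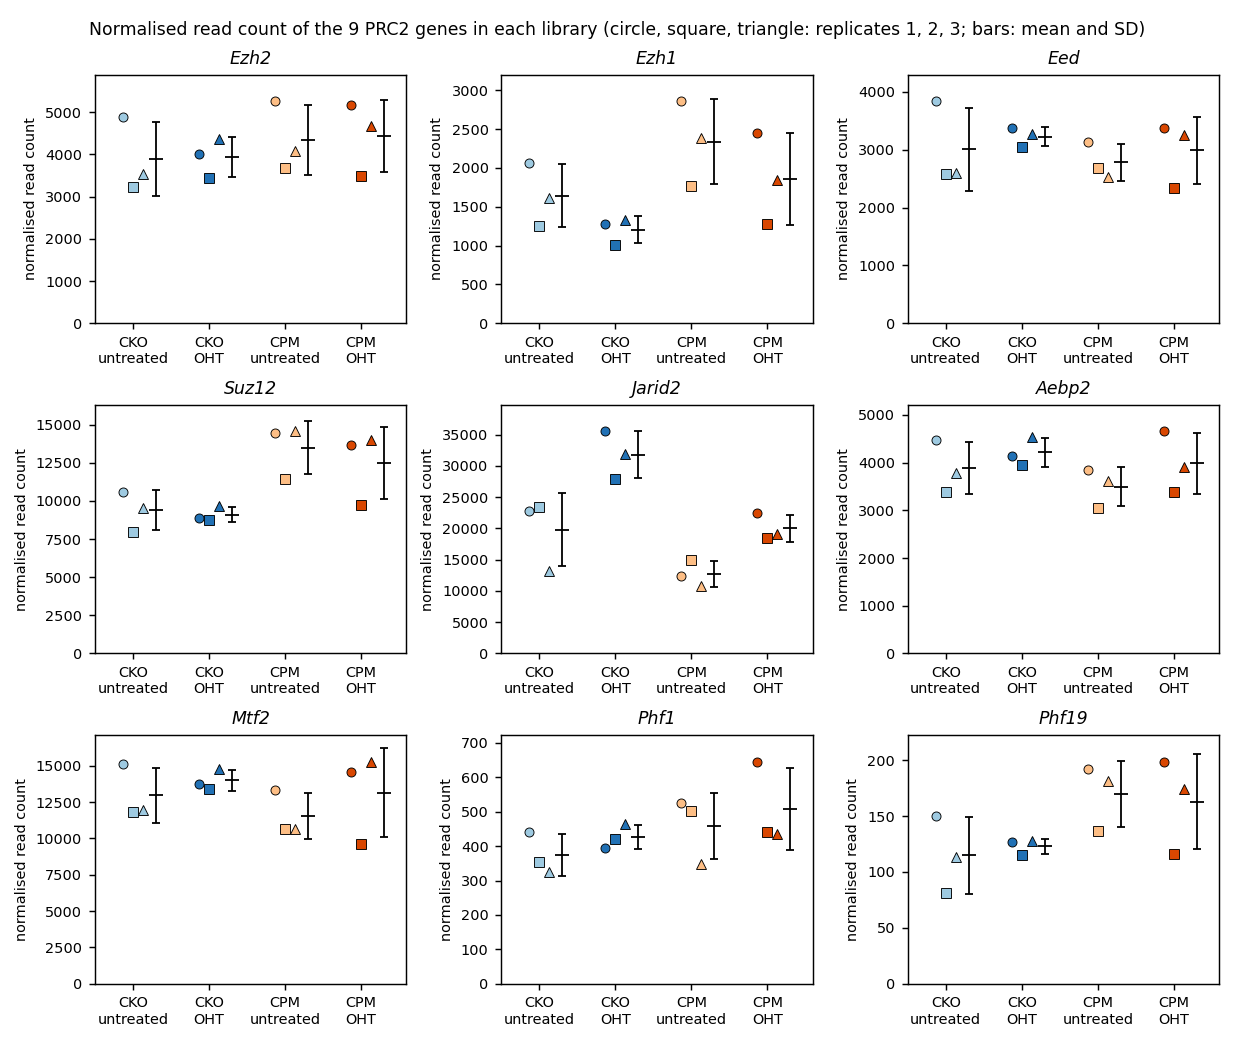
Normalised read count of each PRC2 gene (y axis, linear from 0) in the 12 libraries, grouped by line and treatment on the x axis; circles, squares and triangles are replicates 1, 2 and 3, and black bars give the mean and SD. The OHT-treated libraries of Jarid2 lie above the untreated libraries of the same line, from 27930 in PRC1CKO and from 18470 in PRC1CPM cells, while the other 8 genes overlap between treatments.

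Among the methyltransferases, Ezh2 (NM_001146689, chromosome 6 of GRCm38, 47530274 to 47595030, minus strand, 20 exons), the main H3K27 methyltransferase of proliferating cells, was close to level. Its normalised read counts were 4875, 3235 and 3534 in untreated and 4014, 3429 and 4363 in OHT-treated PRC1CKO cells. In PRC1CPM cells they were 5259, 3673 and 4084 without and 5162, 3499 and 4665 with OHT. Treated and untreated libraries overlapped in each line, with replicate 1 the highest of its condition in 3 of the 4 conditions. The log2 fold change was 0.04 in PRC1CKO cells (95% interval -0.39 to 0.46, adjusted p = 0.949) and 0.03 in PRC1CPM cells (-0.39 to 0.45, adjusted p = 0.970). These intervals leave out a change of 1.5-fold either way.

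Ezh1 (NM_007970, chromosome 11, 101191115 to 101226463, minus strand, 21 exons) encodes the paralogue with the weaker catalytic activity, which is known to persist in cells that have stopped dividing. It read 2065, 1253 and 1616 in untreated and 1275, 1009 and 1335 in OHT-treated PRC1CKO cells. It read 2860, 1771 and 2386 in untreated and 2456, 1279 and 1845 in OHT-treated PRC1CPM cells. Every OHT-treated library was below the untreated library of the same number, although the groups overlapped. The log2 fold change was -0.43 in PRC1CKO (SE 0.24, 95% interval -0.90 to 0.04, adjusted p = 0.239) and -0.35 in PRC1CPM cells (SE 0.24, -0.83 to 0.12, adjusted p = 0.436), and neither passed the test. Leaving out a library gave -0.61 to -0.25 in PRC1CKO and -0.58 to -0.11 in PRC1CPM cells. The values nearest 0 were those without untreated replicate 1 in PRC1CKO (-0.25, adjusted p = 0.499) and without OHT-treated replicate 2 in PRC1CPM cells (-0.11, adjusted p = 0.832), and without untreated replicate 1 the PRC1CPM value was -0.19. On the TMM scale, in place of that of the spike-in, the values were -0.55 (adjusted p = 0.00322) and -0.46 (adjusted p = 0.0131), which is past the adjusted p but short of 1.5-fold in each line. With the replicate number as a block in the limma fit, the adjusted p was 0.0298 in PRC1CPM cells, at the same change and again short of 1.5-fold.

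The ratio of Ezh1 to Ezh2 within a library does not depend on how libraries are scaled. Per kb of gene body, the log2 ratio was -0.366, -0.495 and -0.255 in untreated and -0.781, -0.892 and -0.836 in OHT-treated PRC1CKO cells. In PRC1CPM cells it was -0.005, -0.179 and 0.098 without and -0.199, -0.579 and -0.465 with OHT. The treated libraries lay below the untreated ones in each line without overlap. The difference was -0.46 in PRC1CKO and -0.39 in PRC1CPM cells, each with p = 0.1 by an exact two-sided permutation test, which is the smallest p that 3 against 3 libraries allow.

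The core genes Eed and Suz12 did not pass the test in either line. Eed (NM_021876, chromosome 7, 89954654 to 89980976, minus strand, 12 exons), the reader of H3K27me3 that stimulates the enzyme, read 3839, 2587 and 2601 in untreated and 3373, 3040 and 3264 in OHT-treated PRC1CKO cells. PRC1CPM cells had 3139, 2684 and 2527 without and 3382, 2330 and 3260 with OHT. The treated libraries lay within or across the untreated range. Its log2 fold change was 0.12 (-0.30 to 0.55) in PRC1CKO and 0.09 (-0.33 to 0.51) in PRC1CPM cells. In PRC1CKO cells it ranged from 0.028 to 0.313 when a library was left out.

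Suz12 (NM_001163018, chromosome 11, 79993106 to 80034123, plus strand, 15 exons), the scaffold of the complex, read 10598, 7990 and 9569 in untreated and 8881, 8771 and 9686 in OHT-treated PRC1CKO cells. Counts in PRC1CPM cells were 14466, 11465 and 14563 without and 13658, 9750 and 14028 with OHT. Treatments overlapped in each line, and the larger step was between the lines. The log2 fold change with OHT was -0.03 (-0.43 to 0.36) in PRC1CKO and -0.12 (-0.52 to 0.27) in PRC1CPM cells, and neither interval reaches 1.5-fold.

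Of the PRC2.2 genes, Jarid2 (NM_001205044, chromosome 13, 44730774 to 44921643, plus strand, 19 exons) rose with OHT at the RNA level. It encodes a JmjC-domain protein without known demethylase activity, and the authors reported less of that protein in OHT-treated PRC1CPM cells. Protein was not measured here. In PRC1CKO cells the normalised read counts of Jarid2 were 22780, 23484 and 13154 without and 35503, 27930 and 31846 with OHT. In PRC1CPM cells they were 12429, 14933 and 10811 without and 22444, 18470 and 19145 with OHT. Treated libraries lay above untreated ones in each line without overlap, which held for 22.1% of all transcripts in PRC1CKO and 18.7% in PRC1CPM cells. Untreated PRC1CKO replicate 3 was well below the other untreated libraries of that line. The log2 fold change was 0.72 (SE 0.20, 95% interval 0.31 to 1.13, adjusted p = 0.00646) in PRC1CKO and 0.66 (SE 0.20, 0.25 to 1.07, adjusted p = 0.0181) in PRC1CPM cells, equal to 1.65-fold and 1.58-fold. Since the treatments did not overlap, Jarid2 was necessarily higher in 3 of 3 pairs of the same replicate number in each line. The difference between these responses, PRC1CPM minus PRC1CKO, was -0.06 (-0.64 to 0.52, adjusted p = 1.00 in limma).

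The rise of Jarid2 kept its direction under all 22 alternatives tried in each line, but its call did not. Several of these alternatives could not change the direction. The replicate block, no filter, no mean-variance trend, 1 line alone and leaving out a library of the other line move only the p. In PRC1CKO cells it was lost in 4 of them. Without untreated replicate 3 the log2 fold change was 0.45 (adjusted p = 0.171) and without OHT-treated replicate 1 it was 0.64 (adjusted p = 0.0529). In PRC1CPM cells it was lost in 7, among them without untreated replicate 3 (0.55, adjusted p = 0.134) and without OHT-treated replicate 1 (0.58, adjusted p = 0.0974). Leaving out untreated replicate 1, the library of high summed counts, gave 0.85 (adjusted p = 0.00111) in PRC1CKO and 0.65 (adjusted p = 0.0287) in PRC1CPM cells. With the TMM scale it was 0.60 (adjusted p = 0.0261) and 0.55 (adjusted p = 0.0480), so that the PRC1CPM value came to lie just short of 1.5-fold. With no filter on low counts the adjusted p was 0.0860 and 0.142, and without the mean-variance trend, an alternative added after seeing the data, 0.0624 and 0.111.

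**Figure D2:**
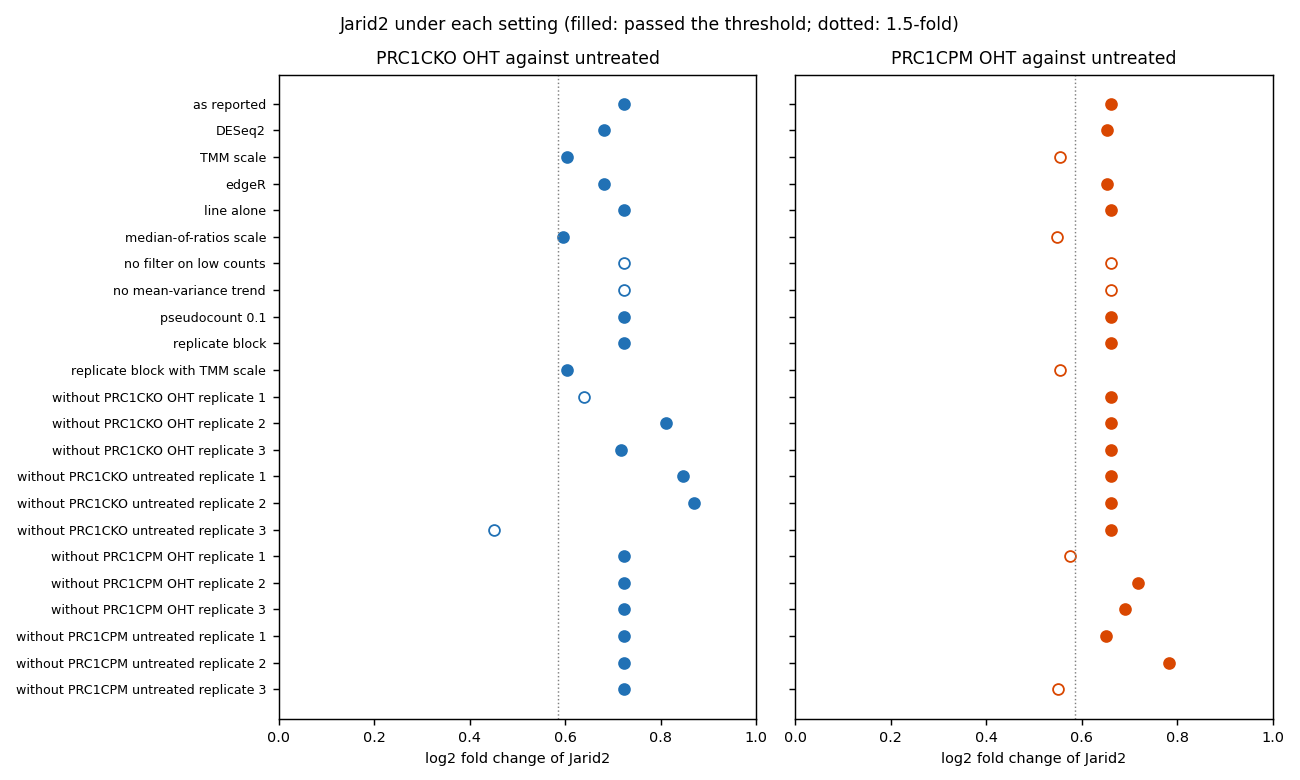
Log2 fold change of Jarid2 with OHT (x axis) in PRC1CKO (left) and PRC1CPM cells (right) as reported and under each of 22 alternatives (y axis); filled points passed the threshold and the dotted line marks 1.5-fold. Points run from 0.45 to 0.87 in PRC1CKO and from 0.55 to 0.78 in PRC1CPM cells, and open points are the 4 and 7 alternatives without a call.

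Aebp2 (NM_178803, chromosome 6, 140622663 to 140655481, plus strand, 8 exons), a zinc finger partner of JARID2, read 4481, 3394 and 3794 in untreated and 4145, 3949 and 4548 in OHT-treated PRC1CKO cells. The PRC1CPM libraries read 3837, 3040 and 3622 without and 4656, 3393 and 3900 with OHT. The groups overlapped, and the log2 fold change was 0.12 (-0.28 to 0.53) in PRC1CKO and 0.18 (-0.22 to 0.58) in PRC1CPM cells, with leave-one-out values of 0.029 to 0.229 and 0.063 to 0.291. The change in Jarid2 was thus not accompanied by a called change in its partner within PRC2.2.

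The Polycomb-like genes of PRC2.1 did not pass the test. Mtf2 (NM_001253877, chromosome 5, 108065674 to 108109219, plus strand, 16 exons), which is known to bring PRC2 to unmethylated CpG-rich DNA in ESCs, read 15128, 11794 and 11974 in untreated and 13766, 13420 and 14797 in OHT-treated PRC1CKO cells. PRC1CPM cells gave 13370, 10637 and 10679 without and 14552, 9617 and 15295 with OHT. The lowest library of all 12 was an OHT-treated one, and treatments overlapped. The log2 fold change was 0.12 (-0.28 to 0.52) in PRC1CKO and 0.17 (-0.23 to 0.56) in PRC1CPM cells, and leaving out a library gave 0.055 to 0.235 and 0.042 to 0.376.

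Phf1 (NM_001302397, chromosome 17, 26933127 to 26937908, plus strand, 15 exons) read 442, 354 and 325 in untreated and 395, 420 and 465 in OHT-treated PRC1CKO cells, and its log2 fold change was 0.20 (-0.31 to 0.71, leave-one-out values 0.105 to 0.328). In PRC1CPM cells it read 527, 501 and 348 without and 646, 442 and 435 with OHT, with a log2 fold change of 0.14 (-0.37 to 0.66). The annotated miRNA gene Mir6968 lies inside Phf1 on the same strand over 68 bases, the only gene found to overlap a member. Phf19 (NM_028716, chromosome 2, 34893755 to 34913976, minus strand, 15 exons) read 150, 81.6 and 113 in untreated and 127, 115 and 127 in OHT-treated PRC1CKO cells. In PRC1CPM cells it read 192, 137 and 182 without and 199, 116 and 174 with OHT. It was the member with the fewest reads and the widest intervals, with log2 fold changes of 0.14 (-0.50 to 0.77) and -0.08 (-0.71 to 0.55), and the intervals reached past 1.5-fold in at least 1 direction in each line.

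**Figure D3:**
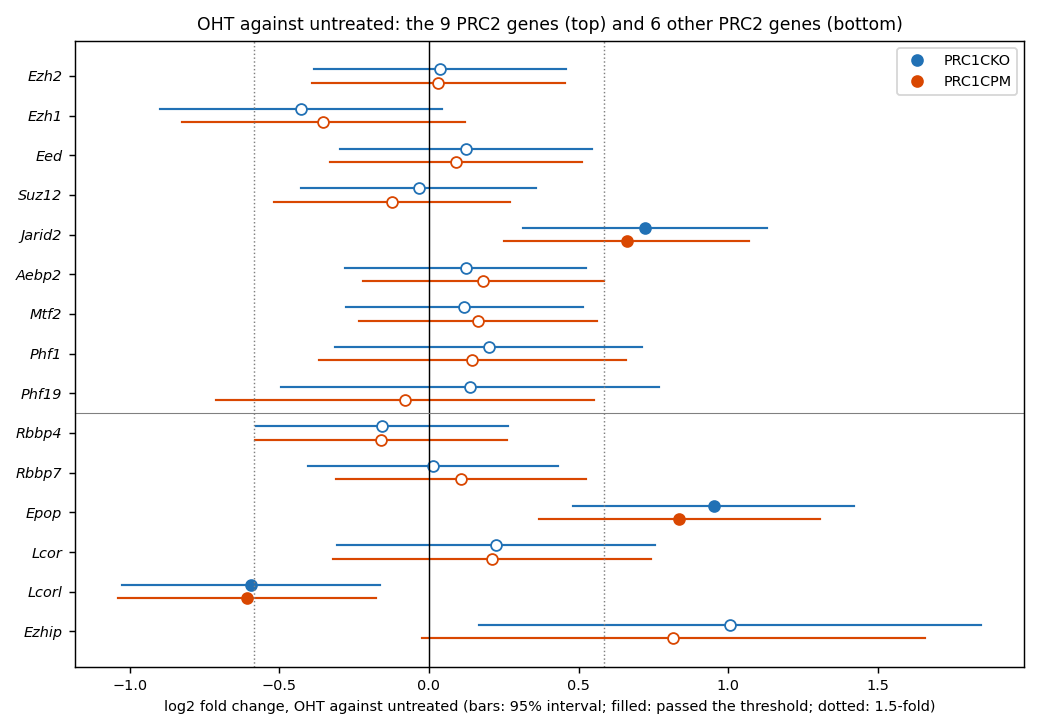
Log2 fold change with OHT against untreated (x axis) for the 9 PRC2 genes and 6 other PRC2 genes (y axis) in PRC1CKO (blue) and PRC1CPM cells (orange); bars are 95% intervals, filled points passed the threshold and dotted lines mark 1.5-fold. Jarid2 (0.72 and 0.66) and Epop (0.95 and 0.84) lie to the right in each line, Lcorl (-0.59 and -0.61) to the left, and the other intervals include 0 apart from that of Ezhip in PRC1CKO cells.

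Other genes of PRC2 were counted from a list. Of 6, 1 rose, 1 fell and 4 did not pass the test in each line, and the genes called were Epop and Lcorl in each. Of all transcripts, 19.5% passed in PRC1CKO and 14.5% in PRC1CPM cells. Epop (listed as E130012A19Rik, NM_175332), which encodes a PRC2.1 partner that links the complex to elongin, rose from 2333, 1224 and 1282 to 3271, 2919 and 2774 in PRC1CKO cells and from 1849, 1434 and 1705 to 3140, 2034 and 4039 in PRC1CPM cells. The treated libraries lay above the untreated ones in each line, as for 22.1% of all transcripts in PRC1CKO and 18.7% in PRC1CPM cells. Its log2 fold change was 0.95 (SE 0.23, adjusted p = 0.00159) and 0.84 (SE 0.23, adjusted p = 0.00821). The call was lost in 1 of 22 alternatives in PRC1CKO (no filter, adjusted p = 0.0696) and in 3 in PRC1CPM cells, namely without OHT-treated replicate 3 (0.61, adjusted p = 0.134), with no filter (adjusted p = 0.135) and without the trend (adjusted p = 0.0863). Lcorl, of which a vertebrate-specific product (PALI2) joins PRC2.1, fell from 3270, 2518 and 2116 to 1736, 1478 and 1973 in PRC1CKO cells and from 3483, 3291 and 2580 to 2399, 1991 and 1747 in PRC1CPM cells. The log2 values were -0.59 (adjusted p = 0.0418) and -0.61 (adjusted p = 0.0464), near the threshold, and the call was lost in 9 and 11 of 22 alternatives, with leave-one-out values from -0.74 to -0.43 and from -0.74 to -0.50. Without untreated replicate 1 it was -0.43 (adjusted p = 0.146) in PRC1CKO and -0.52 (adjusted p = 0.151) in PRC1CPM cells.

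The histone chaperone genes Rbbp4 and Rbbp7, whose products sit in PRC2 and in several other complexes, did not pass the test. Rbbp4 had a log2 fold change of -0.16 in each line (-0.58 to 0.26 in PRC1CKO cells) and Rbbp7 of 0.01 (-0.40 to 0.43) in PRC1CKO and 0.11 (-0.31 to 0.53) in PRC1CPM cells. Lcor, which encodes the related PALI1 product, had 0.22 and 0.21. Ezhip (AU022751), an inhibitor of EZH2 in germ cells, rested on 14 to 101 reads in a library, and its values of 1.01 (adjusted p = 0.0880) and 0.82 (adjusted p = 0.238) did not pass. With the replicate block, Ezhip passed in PRC1CPM cells (adjusted p = 0.0301).

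Of the genes for readers and erasers of H3K27me3, 6 of 7 were in the table. In PRC1CKO cells 1 rose, 1 fell and 4 did not pass, and in PRC1CPM cells 1 rose and 5 did not pass, beside 19.5% and 14.5% of all transcripts called, so that the PRC1CPM count was near the background. The CBX proteins are the subunits through which canonical PRC1 reads the mark. Cbx8 rose from 11.9, 8.47 and 13.5 to 108, 58.3 and 105 in PRC1CKO cells, a log2 fold change of 2.86, and by 2.87 in PRC1CPM cells. Its untreated libraries held only 8 to 16 reads in PRC1CKO and 2 to 17 in PRC1CPM cells. Leaving out a library gave 2.69 to 3.15 and 2.11 to 3.28. Cbx7, the main CBX gene of ESCs, fell by 0.64 in PRC1CKO cells (adjusted p = 0.0255), with a value of -0.33 (adjusted p = 0.407, leave-one-out values -0.53 to -0.13) in PRC1CPM cells. The PRC1CKO call was lost in 5 of 22 alternatives, which were those without untreated replicate 1 (-0.45, adjusted p = 0.117), OHT-treated replicate 2 (-0.57, adjusted p = 0.112) or OHT-treated replicate 3 (-0.65, adjusted p = 0.0635), with no filter (adjusted p = 0.119) and without the trend (adjusted p = 0.107). The difference between its responses, 0.30 (-0.30 to 0.91, adjusted p = 1.00 in limma), did not pass the test. Cbx2 read 498, 354 and 404 in untreated and 707, 618 and 548 in OHT-treated PRC1CKO cells, a log2 fold change of 0.58 (adjusted p = 0.0916), and had 0.54 (adjusted p = 0.157) in PRC1CPM cells. Its treated libraries lay above the untreated ones in each line, but neither value passed the test. Such a lack of overlap held for 22.1% of all transcripts in PRC1CKO and 18.7% in PRC1CPM cells. The demethylase genes Kdm6a and Kdm6b did not pass in either line, with values between -0.19 and 0.06.

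Within a library, the balance of PRC2.2 to PRC2.1 genes was taken as the log2 ratio of Jarid2 plus Aebp2 to Mtf2, Phf1 and Phf19, per kb of gene body. In PRC1CKO cells it was -0.806, -0.624 and -0.917 without and -0.375, -0.591 and -0.538 with OHT. In PRC1CPM cells it was -1.23, -1.06 and -0.970 without and -0.885, -0.673 and -1.04 with OHT. The groups did not overlap in PRC1CKO cells and did in PRC1CPM cells. The differences were 0.28 (exact two-sided permutation p = 0.1, the smallest possible) and 0.22 (exact permutation p = 0.2). In PRC1CPM cells the difference was 0.12 without OHT-treated replicate 2 and 0.31 without OHT-treated replicate 3. Per kb of exons the differences were 0.51 and 0.41, with the same p in each line.

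The make-up of the Polycomb-like genes shifted little with OHT. Mtf2 took 78.1 ± 0.731% of their sum per kb in untreated and 77.1 ± 0.796% in OHT-treated PRC1CKO cells, and 71.9 ± 3.17% and 72.3 ± 4.87% in PRC1CPM cells (mean ± SD, n = 3). Phf1 took 20.5 ± 0.887% and 21.4 ± 0.870% in PRC1CKO and 25.9 ± 3.59% and 25.8 ± 4.87% in PRC1CPM cells, and Phf19 less than 3% in each library. Treated and untreated libraries overlapped for all 3 shares in each line, and the exact two-sided permutation p lay between 0.3 and 1. When a library was left out in PRC1CPM cells, the change in the Mtf2 share ran from -2.37 to 2.00 percentage points. That in the Phf1 share ran from -1.86 to 2.74, so the sign of neither was fixed.

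**Figure D4:**
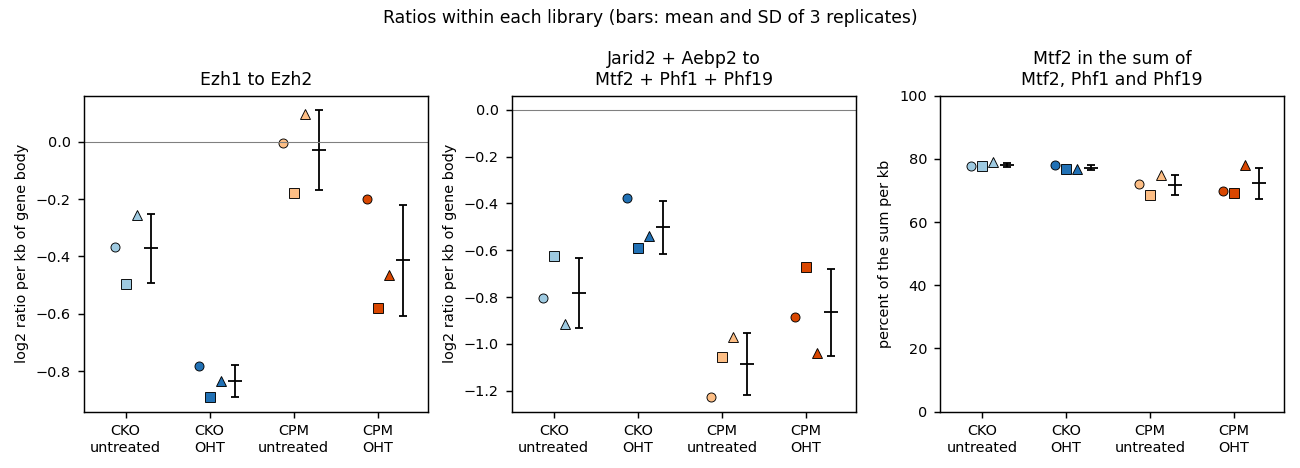
Ratios within each library by line and treatment (x axis), as the log2 ratio of Ezh1 to Ezh2 (left) and of Jarid2 plus Aebp2 to Mtf2, Phf1 and Phf19 (middle), and as the percent of Mtf2 in the sum of the Polycomb-like genes (right), all per kb of gene body; bars are the mean and SD of 3 replicates. The Ezh1 to Ezh2 ratio lies lower with OHT in each line (means -0.372 and -0.836 in PRC1CKO, -0.029 and -0.414 in PRC1CPM), and the share of Mtf2 is near level.

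Levels of the PRC2 genes were compared with each other only per length. Per kb of gene body and over all 12 libraries, Mtf2 had the highest mean normalised read count (297 ± 44.4 SD), followed by Suz12 (271 ± 59.3), Aebp2 (119 ± 15.2), Eed (114 ± 17.2), Jarid2 (110 ± 41.0), Phf1 (92.4 ± 18.5), Ezh2 (64.1 ± 10.9), Ezh1 (49.9 ± 16.4) and Phf19 (7.06 ± 1.81). Neighbours in this order overlapped in their ranges except Suz12 and Aebp2, and Ezh1 and Phf19. Mtf2 came first in both conditions of PRC1CKO cells, and Suz12 in both of PRC1CPM cells (329 against 266 for Mtf2 untreated and 304 against 302 with OHT), where their libraries overlapped. Jarid2 moved from the fifth place in untreated to the third in OHT-treated PRC1CKO cells, where it stood at 166 per kb and overlapped neither neighbour, and from the seventh to the sixth in PRC1CPM cells (66.7 and 105 per kb). Per kb of exons, Jarid2 (3717 ± 1379) came first, Mtf2 next (2746 ± 411), then Suz12 (2583 ± 565) and Ezh2 (1572 ± 268). That order also varied, since in untreated PRC1CPM cells Suz12 (3136) and Mtf2 (2457) came before Jarid2 (2244), and with OHT Suz12 (2899) came before Mtf2 (2796). Exons make up 2.97% of the Jarid2 gene and 4.08% of the Ezh2 gene, against 51.1% of Phf1, and total RNA carries reads from introns, so the order depends on the length used.

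Between the lines, no member passed the test as designed, which ignores replicate numbers, when both were untreated or both OHT-treated. The background was 2.69% of transcripts when untreated and 1.47% when treated. At an unadjusted p under 0.05 there were 3 of 9 members in each, beside 14.1% of all transcripts when untreated and 11% when treated, and DESeq2 and edgeR on the recovered reads called 0. These comparisons share libraries with those of OHT. Replicate numbers did pair the libraries of the lines (same-numbered libraries deviated together). With the replicate block, 1 member was called when treated (Jarid2) and 2 when untreated (Jarid2 and Phf19), where the background was 8.05% and 11.1%.

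Jarid2 was lower in PRC1CPM than in PRC1CKO cells with OHT in all libraries, as were 4.35% of all transcripts, and its log2 difference was -0.66 (-1.07 to -0.25, adjusted p = 0.0908). Without OHT the difference was -0.60 (-1.01 to -0.19, adjusted p = 0.0994), where the low untreated PRC1CKO replicate 3 (13154) fell below the highest PRC1CPM library (14933). Neither passed the test as designed. With the replicate block, the adjusted p in limma was 1.29e-04 and 4.72e-04, and with the TMM scale the differences were -0.77 (adjusted p = 0.0262) and -0.72 (adjusted p = 0.0300), where 4.63% and 6.2% of all transcripts passed. It was also called with OHT when untreated PRC1CKO replicate 1 (adjusted p = 0.0321) or 2 (0.0470) or untreated PRC1CPM replicate 1 (0.0431) was left out of the shared fit, and without OHT when untreated PRC1CKO replicate 3 (-0.87, adjusted p = 0.0150) or untreated PRC1CPM replicate 2 (-0.73, adjusted p = 0.0431) was. Chromosome 13 as a whole did not differ in this way, with a median of 0.04 with and 0.08 without OHT.

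Suz12 and Ezh1, both on chromosome 11, had higher means in PRC1CPM cells. For Suz12 the log2 difference was 0.53 (0.13 to 0.92, adjusted p = 0.159) without and 0.44 (0.04 to 0.83, adjusted p = 0.364) with OHT, and the libraries of the lines did not overlap in either condition, which held upwards for 9.23% and 11.9% of all transcripts. For Ezh1 it was 0.51 (0.04 to 0.98, adjusted p = 0.296) and 0.58 (0.11 to 1.06, adjusted p = 0.272). Leaving out a library gave 0.33 to 0.70 without and 0.36 to 0.83 with OHT for Ezh1. Neither gene passed the test, although with the replicate block their adjusted p in limma lay between 3.28e-04 and 0.0140 at changes short of 1.5-fold. Without untreated PRC1CKO replicate 1, a library of high summed counts, Suz12 was called between untreated lines (0.62, adjusted p = 0.0346). The 1379 other transcripts of chromosome 11 had a median difference of 0.45 without and 0.42 with OHT, against 0.12 and 0.10 for all transcripts, and over 93% of them were above 0. Relative to the median of their chromosome, Suz12 differed by 0.08 and 0.01 and Ezh1 by 0.06 and 0.16. The number of copies of chromosome 11 in these clones was not measured here, and its part in these differences was not tested.

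Ezh2 and Aebp2 lie on chromosome 6, whose 851 other transcripts had a median difference of 0.31 without and 0.30 with OHT. Ezh2 differed by 0.17 and 0.16 and Aebp2 by -0.15 and -0.09, none of which passed the test, and relative to their chromosome both were below 0. The other chromosomes with members had medians between 0.04 and 0.11. Phf19, on chromosome 2, differed by 0.59 (-0.04 to 1.22, adjusted p = 0.410) without and 0.37 (-0.26 to 1.00, adjusted p = 0.823) with OHT, and with the replicate block the untreated difference passed (adjusted p = 0.0399 in limma). On the TMM scale the untreated value was 0.47, short of 1.5-fold, so the block with that scale did not call it. Leaving out a library gave 0.36 to 0.80 without and 0.21 to 0.60 with OHT for Phf19. Eed (-0.09 and -0.13), Mtf2 (-0.16 and -0.12) and Phf1 (0.28 and 0.23) did not pass with or without the block.

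**Figure D5:**
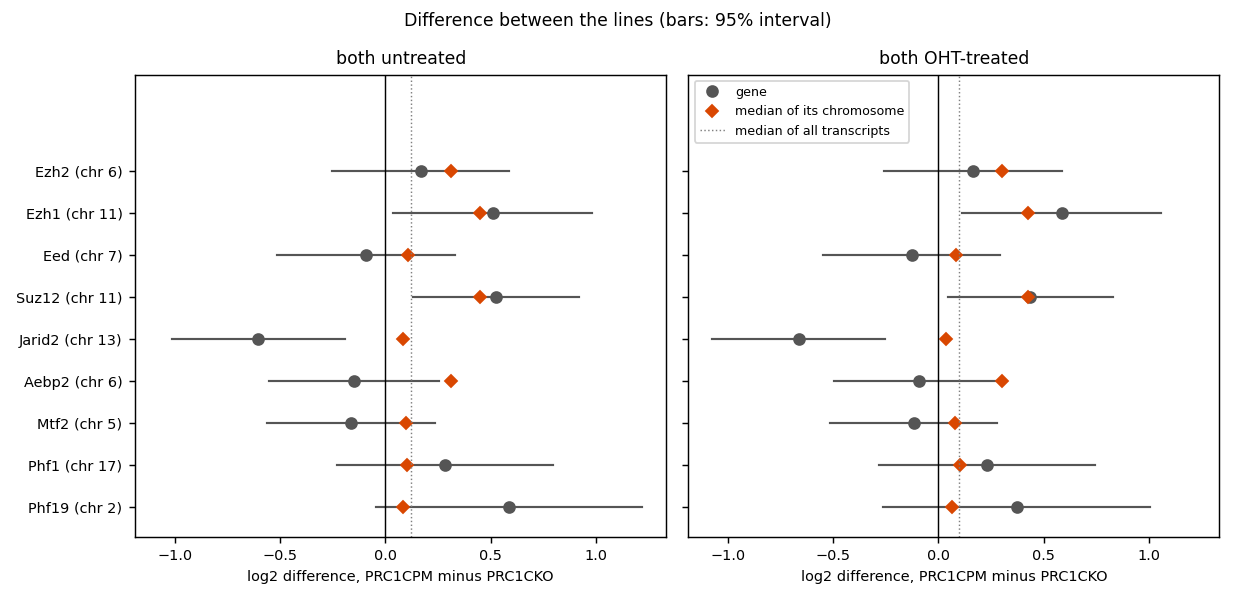
Log2 difference between PRC1CPM and PRC1CKO cells (x axis) for each PRC2 gene (grey points with 95% intervals) and the median of the transcripts of its chromosome (orange), untreated (left) and OHT-treated (right); the dotted line is the median of all transcripts. Suz12 and Ezh1 lie near the median of chromosome 11 (0.45 and 0.42), and Jarid2 lies at -0.60 and -0.66 while chromosome 13 is near 0.

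The response to OHT did not differ detectably between the lines for any member. In the test of the difference 0 of 9 members passed, where 0.0236% of all transcripts did, none had an unadjusted p under 0.05, as 2.93% of all transcripts did, and DESeq2, edgeR and the replicate block also called 0. The intervals of the 9 differences together ran from -1.11 to 0.74 on the log2 scale, and each of the 9 reached past 1.5-fold in at least 1 direction.

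By the correlation of log2 normalised read counts over the 12 libraries, the genes most like Jarid2 were Ppap2b (Pearson r = 0.962), Casp8 (0.960), Ctdsp1 (0.957), Mapk4 (0.953) and Arhgap42 (0.950). These libraries fall into 4 conditions and share their scale, so the values describe likeness of pattern alone. Choosing genes this way largely fixes their direction, so the log2 fold changes with OHT are given only as a description. They were 0.78, 0.80, 0.41, 0.77 and 0.65 in PRC1CKO and 0.81, 1.28, 0.29, 0.46 and 0.39 in PRC1CPM cells.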

How the data were processed

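Total RNA from mouse ESCs mixed with Drosophila cells was sequenced as cRNA-seq in 12 libraries, with 12 matching genomic DNA libraries that were not used here. The authors aligned reads to mm10 and dm6 with STAR and Bowtie2, removed duplicates, counted reads over the bodies of 20633 non-redundant transcripts and divided by spike-in size factors (DESeq2). The deposited values are therefore a scaled read-count signal, not counts. The authors' table also holds log2 fold changes and adjusted p-values of their own comparisons, which were not used. Whether counting used strand is not given in the sources used here. Within a tolerance of 0.02, 100% of values were whole multiples of a read, so reads were recovered (14668159 to 27016156 per library).

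Tests took the 16940 transcripts that reached 10 reads in 3 or more libraries, fitted with limma 3.58.1 (R 4.3.3) on log2(normalised read count + 1), a mean per condition over 12 libraries, a trended prior variance, and p-values adjusted by Benjamini-Hochberg across them all. Fold changes on this scale understate those of low genes. Calls needed an adjusted p under 0.05 and over 1.5-fold, and the test of the difference between lines an adjusted p alone. The procedure was tested on simulated data. Alternatives were edgeR 4.0.16 and DESeq2 1.42.0 on recovered reads, TMM and median-of-ratios scales, no filter, a pseudocount of 0.1, a replicate block, 1 line alone, the adjusted p alone and each library left out. DESeq2 and edgeR called 3317 and 3251 transcripts with OHT in PRC1CKO and 2579 and 2498 in PRC1CPM cells, where limma called 3311 and 2463.

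The 9 members are named, as are other PRC2 genes and H3K27me3 readers and erasers past the threshold in either line, with Epop, Rbbp4 and Rbbp7 in any case (Lcor, Ezhip, Cbx2, Kdm6a, Kdm6b and Uty were added after their values were seen), and the 5 genes most correlated with the member that changed most. Members and lists were chosen with earlier results of these data known, and 1 gene of the lists is not reported here. Markers of fibroblasts, neural, mesoderm, endoderm and trophectoderm cells were summed too. Same-numbered libraries deviated together in all 3 pairs for OHT in PRC1CPM cells and for each comparison of lines (deviations correlated above 0.1), so the numbers were taken to pair those libraries; for OHT in PRC1CKO cells 1 pair fell short at 0.0988. Gene positions are from RefSeq for GRCm38.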

Additional observations from a re-analysis of the deposited data

How the results depend on the processing

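Of 795 pairs of a member's log2 value and an alternative, 733 kept their direction and their side of the threshold, 36 reversed, 11 lost and 15 gained a call, and no reversed value passed the threshold. Many of these pairs could not reverse. The replicate block on the spike-in scale, no filter, no trend, 1 line alone and leaving out a library outside the comparison leave the value unchanged. Differences between the lines relative to a chromosome are not in this tally. They turned Ezh2 to -0.140 with and -0.146 without OHT. The spike-in scale put the median of all transcripts at 0.12 in PRC1CKO and 0.10 in PRC1CPM cells with OHT, and the TMM scale at -0.002 and -0.007, so the small positive values of several members lie near or below that of all transcripts. The alternatives without the mean-variance trend, of the block with the TMM scale and of differences relative to a chromosome were chosen after seeing the data. A second row of a symbol could not be tried, as each member has 1 row. Phf19 rested on the fewest reads, 101 to 206 in a library, and the part of depth in its intervals was not tested.

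The number of members called with OHT was 0 in place of 1 with no filter on low counts and without the trend in each line, and in PRC1CPM cells also 0 with the TMM scale, the median-of-ratios scale and the replicate block with TMM scale. Between the lines it was 1 in place of 0, with and without OHT, on the TMM scale, the median-of-ratios scale and the replicate block with TMM scale. Leaving out a library gave 0 to 1 in each of these 4 comparisons.

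Across all pairs of libraries with the same number, 17 of 18 deviated together above 0.1 (mean r 0.205, lowest 0.0988, highest 0.438), against a mean of -0.102 over 36 other pairs, and 12 of 12 libraries correlated best with their own number. With the replicate block, 1 member was called between OHT-treated lines and 2 between untreated lines, in place of 0. For OHT in PRC1CPM cells the block moved calls over all transcripts from 2463 to 3494. Jarid2 stayed the 1 member called there (adjusted p = 3.35e-05 in limma). For OHT in PRC1CKO cells and for the difference of responses, the libraries were not taken as paired. There the block moved calls over all transcripts from 3311 to 4258 and from 4 to 324, and the members called stayed at 1 and 0.

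Over all transcripts, calls between OHT-treated lines went from 249 to 429 (DESeq2), 785 (TMM), 774 (median-of-ratios), 73 (no filter), 1363 (block) and 1151 (block with TMM), and between untreated lines from 455 to 1050 (TMM), 1046 (median-of-ratios), 132 (no filter), 1884 (block) and 1470 (block with TMM). Calls of the difference of responses went from 4 to 15 (DESeq2), 14 (TMM), 13 (median-of-ratios), 1 (pseudocount 0.1), 0 (no trend) and 254 (block with TMM). On the TMM scale the share of calls that were higher was 71.5% in place of 84.2% in PRC1CKO, 80.1% in place of 90.4% in PRC1CPM, 66.8% in place of 85.1% between OHT-treated and 71.0% in place of 82.2% between untreated lines, and within 1 percentage point of these shares on the median-of-ratios scale. Leaving out a library gave 116 to 477 calls between OHT-treated lines (lowest without PRC1CKO OHT replicate 2, highest without PRC1CKO untreated replicate 1), 244 to 1570 between untreated lines (without PRC1CKO untreated replicates 3 and 1) and 1 to 28 for the difference of responses (highest without PRC1CKO untreated replicate 1).

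With OHT in PRC1CKO cells, Ezh2 reversed to -0.083 (TMM, and block with TMM) and -0.090 (median-of-ratios), Mtf2 to -0.00075 (TMM, and block with TMM) and -0.0074 (median-of-ratios), and Eed and Aebp2 to -0.0013 and -0.0034 (median-of-ratios). Rbbp7 reversed to -0.015 (DESeq2 and edgeR), -0.105 (TMM, and block with TMM) and -0.112 (median-of-ratios). In PRC1CPM cells, Ezh2 reversed to -0.075 (TMM, and block with TMM) and -0.082 (median-of-ratios), Eed to -0.017 (TMM, and block with TMM) and -0.024 (median-of-ratios) and Rbbp7 to -0.0062 (median-of-ratios).

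Leaving out a library gave, in PRC1CKO cells, -0.084 to 0.212 for Ezh2, -0.146 to 0.058 for Suz12, -0.088 to 0.349 for Phf19, -0.307 to 0.018 for Rbbp4 and -0.099 to 0.234 for Rbbp7. In PRC1CPM cells it gave -0.086 to 0.194 for Ezh2, -0.0082 to 0.261 for Eed, -0.237 to 0.045 for Suz12, -0.043 to 0.255 for Phf1, -0.242 to 0.145 for Phf19 and -0.323 to 0.015 for Rbbp4. Between OHT-treated lines it gave 0.045 to 0.325 for Ezh2, -0.226 to 0.043 for Eed and -0.210 to 0.019 for Aebp2. In the same comparison Mtf2 had -0.241 to 0.094 and Phf1 0.043 to 0.327. Between untreated lines it gave 0.020 to 0.343 for Ezh2, -0.189 to 0.096 for Eed and -0.243 to -0.043 for Aebp2. There Mtf2 had -0.273 to -0.048 and Phf1 0.173 to 0.471. For the difference of the Jarid2 responses it gave -0.207 to 0.211.

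Per kb of exons, the ratio of PRC2.2 to PRC2.1 genes differed with OHT by 0.51 in PRC1CKO and 0.41 in PRC1CPM cells, in place of 0.28 and 0.22, and the ranks of the levels were 1 for Jarid2, 2 for Mtf2, 3 for Suz12, 4 for Ezh2, 5 for Eed, 6 for Aebp2, 7 for Ezh1 and 8 for Phf1.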

Other observations

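Uty, the Y-linked paralogue of the demethylase gene Kdm6a, differed most between the lines among the readers and erasers of H3K27me3. It read 164, 169 and 217 in untreated and 123, 96.3 and 190 in OHT-treated PRC1CKO cells, and 1750, 1988 and 1864 in untreated and 1505, 1417 and 1493 in OHT-treated PRC1CPM cells. The log2 difference was 3.35 without and 3.48 with OHT, and the 5 transcripts of chromosome Y that were tested had medians of 2.93 and 3.11.

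Summed markers of other lineages had higher medians with OHT too. Mesoderm markers went from a median of 139 to 467 in PRC1CKO and from 179 to 499 in PRC1CPM cells, neural markers from 709 to 1872 and from 1229 to 1608, trophectoderm markers from 201 to 504 and from 245 to 447, and fibroblast markers, with Col1a1 the most abundant, from 2673 to 3495 and from 4633 to 6201. Fibroblast sums overlapped between treatments, at 2037 to 5692 untreated and 3126 to 3936 treated in PRC1CKO cells. In PRC1CPM cells they ran from 3707 to 14492 untreated and from 4510 to 14755 treated. Neural sums overlapped there too (1010 to 1367 and 1207 to 2405). The remaining sums of this paragraph did not overlap. The fibroblast markers did not move together. In PRC1CKO cells Thy1 rose (0.65 on the log2 scale), Postn fell by 2.13 and the 3 collagen genes did not pass the test (Col1a1 0.14, Col1a2 -0.17 and Col3a1 -0.88), and in PRC1CPM cells none of the 5 passed, with Col1a1 at 0.50, Col1a2 at -0.81, Col3a1 at -0.32 and Postn at -1.27. Of the other lists, 2 of 4 neural, 2 of 3 mesoderm and 2 of 3 trophectoderm markers tested rose in PRC1CKO cells, and 1 of 4, 2 of 3 and 2 of 3 in PRC1CPM cells, where 16.5% and 13.1% of all transcripts rose. None of these lists had its markers at 0 in all libraries, and their part in the PRC2 values was not tested.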
